A study of Homo sapiens with 2 samples.

Results

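The mERG peaks centred on SINE repeats were the 2559 peaks, of 18070 in the mERG peak list, whose centre lay in a short interspersed nuclear element (SINE) by the annotation the authors deposited with the list. That annotation gives the name, class and family of the repeat under the peak centre, and every peak of class SINE was taken. No score or width entered this rule, which was set with earlier results of these data known. SINE peaks made up 14.2% of the list (Wilson 95% interval 13.7 to 14.7%). Of these, 1880 lay in Alu elements, 674 in MIR elements and 5 in other SINEs. They were set against the 10417 peaks without a repeat at the centre, and the remaining 5094 peaks lay in other repeats, mainly the 3259 in LINEs. The list came from ChIP-seq with the anti-mERG antibody, directed at methylated ERG (mERG), in VCaP cells, a prostate cancer line that carries the TMPRSS2-ERG fusion. There was 1 mERG ChIP library and 1 control library, also from VCaP, whose labels name both INPUT and anti-IgG. Chromatin of both was cross-linked in 1% formaldehyde, cut with MNase and sonication, and sequenced as 75 bp single-end reads. With 1 library of each kind no value has a replicate, and all intervals below cover counting error over peaks only. A peak list does not measure RNA, so the label VCaP could not be checked against expressed markers.

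SINEs are short repeats that spread through RNA copies with the help of LINE proteins. Alu elements are found in primates, derive from the 7SL RNA of the signal recognition particle and are rich in CpG when young, with AluJ the oldest branch, AluS intermediate and AluY the youngest, while FLAM, FRAM and FAM are single Alu arms. MIR elements are older, derive from a tRNA, occur across mammals and have diverged far from each other, and ERG belongs to the ETS factors, which bind DNA around a GGAA core.

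To show what lies under these peaks, the 200 bp around the centre of a high-scoring peak are given for the 2 commonest MIR names. MIR made up 26.3% of the SINE peaks, so these windows do not stand for Alu. Both are on the plus strand of hg19 (GRCh37), written 5′ to 3′. Capitals mark GGAA (TTCC on the other strand). The MIRb peak lies in intron 2 of NEDD9, a scaffold protein of focal adhesions, and the MIR peak in intron 1 of RAD23B, a nucleotide excision repair protein.
MIRb window, chr6:11227000-11227199: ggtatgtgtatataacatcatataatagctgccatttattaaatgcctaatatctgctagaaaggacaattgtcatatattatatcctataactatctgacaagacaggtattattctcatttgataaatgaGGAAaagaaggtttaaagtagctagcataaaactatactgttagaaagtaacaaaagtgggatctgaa
MIR window, chr9:110055623-110055822: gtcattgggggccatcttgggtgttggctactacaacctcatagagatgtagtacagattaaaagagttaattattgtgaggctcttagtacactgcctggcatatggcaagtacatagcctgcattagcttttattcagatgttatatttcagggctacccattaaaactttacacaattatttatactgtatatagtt

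GGAA on either strand occurred 1 time in the MIRb window and 0 times in the MIR window. Windows of the same length held it at 83.7% of all peaks and at 84.4% of peaks of the MIR family. The MIR window, which lacks it, is therefore not typical of that family. A match is a description of the letters and not a binding site. The GC content of the windows was 29.5% for MIRb and 37% for MIR, where centres of the MIR family had a median of 38.8%. Their peaks scored 155.4 and 171.9 in the same order, where the score is read as the log10 of the p-value that MACS gave the peak, multiplied by −10.

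Alu made up 73.5% of the SINE peaks (Wilson 95% interval 71.7 to 75.1%), MIR 26.3% (24.7 to 28.1%) and other SINEs 0.195%. The commonest single name was AluJb with 286 peaks, followed by MIRb with 277, MIR with 216, AluSx with 200 and AluSz with 194. Grouped by branch, AluS took 1017 of the 1880 Alu peaks (54.1%), AluJ 707 (37.6%) and AluY 61 (3.24%). The single-arm elements were fewer, with 73 FLAM, 11 FRAM and 11 FAM peaks. Among MIR elements, MIRc followed MIRb and MIR with 105 peaks, and MIR3 had 76. The 5 other SINE peaks were 2 MamSINE1, 2 LFSINE_Vert and 1 AmnSINE1. In the plot of peaks per repeat name, AluJ and AluS names take 3 each and MIR names 2 of the 8 tallest bars, and AluY has a short bar. The copies of each name in the genome were not counted here, so these numbers do not give a rate per element.

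SINE peaks were about as strong as peaks without a repeat. The score had a median of 40.6 at SINE peaks (95% interval of the median 40.3 to 41.2, quartiles 36.0 and 49.6) and 41.1 at peaks without a repeat (40.8 to 41.3), a difference of −0.47 with an interval of −0.87 to 0.132. A score of at least 50 was reached by 626 SINE peaks (24.5%), where 25.0% of all peaks reached it. A score of at least 100 was reached by 61 SINE peaks (2.38%), against 2.23% of all peaks. Both shares were close to those of the whole list. Within the SINE peaks, Alu had a median score of 40.4 (interval 39.8 to 40.8) and MIR 41.8 (40.5 to 42.7). The difference of −1.39 (interval −2.47 to −0.0615) put Alu slightly lower, which is small beside the quartiles of Alu, 35.9 and 49.2. As the median of the differences within 14 chromosomes it was −2.87, outside that interval. The share with a score of at least 50 was 23.6% in Alu and 26.6% in MIR, and the difference of −2.94 percentage points had an interval that held 0 (−6.87 to 0.814). By branch, the medians were 40.3 in AluJ, 40.5 in AluS, 39.2 in AluY and 43.3 in FLAM, and their intervals overlapped. Among the MIR names with over 100 peaks, MIRb had a median of 42.5, MIR 41.1 and MIRc 38.2.

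Counted along the ranking by score, SINE peaks held 20 of the strongest 100 places (20%, Wilson 95% interval 13.3 to 28.9%), 148 of the strongest 1000 (14.8%, 12.7 to 17.1%) and 694 of the strongest 5000 (13.9%, 12.9 to 14.9%). The share in the strongest 1000 and 5000 was therefore near that of the list. It was higher in the strongest 100, where few peaks are counted and the wide interval holds the list's share of 14.2%. In 4 score classes of equal size, from the weakest to the strongest, the Alu share went from 10.96% to 10.94%, 9.87% and 9.85%, and the MIR share from 3.34% to 3.65%, 3.96% and 3.96%. Across these classes the Alu share fell slightly and the MIR share rose slightly, with overlapping intervals between the weakest and the strongest class, but the strongest 100 peaks held 15 Alu and 5 MIR peaks, from few peaks. In the plot of scores the MIR curve lay above the Alu curve over much of the range, with 13.2% of MIR and 9.26% of Alu peaks at or above a score of 63.7.

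The width of the peaks also differed little. SINE peaks had a median width of 401 bp (interval 391 to 408, quartiles 308 and 547) and peaks without a repeat 402 bp (399 to 406), a difference of −1 bp with an interval of −11.8 to 6.62. Alu peaks had a median of 398 bp and MIR peaks 405 bp. Widths of at least 1 kb were found at 163 SINE peaks (6.37%), where 5.77% of all peaks were that wide. AluY had 10 such peaks of 61 (16.4%, Wilson 95% interval 9.16 to 27.6%), a share above that of AluJ (5.23%) and AluS (6.78%) but drawn from few peaks. FLAM had 8 of 73 (10.96%, 5.66 to 20.2%), with an interval that overlaps that of AluY.

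Most SINE peaks lay inside genes. Introns held 2351 of them (91.9%, Wilson 95% interval 90.7 to 92.9%) and intergenic stretches the other 208 (8.13%). At peaks without a repeat the intron share was 85.2%, so the difference was 6.70 percentage points (Newcombe 95% interval 5.40 to 7.92). The annotation names a repeat only for peaks it places in an intron or an intergenic stretch, or gives no location, so the 0 SINE peaks in exons, UTRs and promoters follow from how it was written. When the peaks without a repeat were limited to introns and intergenic stretches, a comparison chosen after seeing the data, their intron share was 93.0% and the difference turned to −1.09 points (−2.31 to 0.0424). Alu and MIR had similar intron shares, 91.6% and 92.4%. By GENCODE, 93.4% of SINE peak centres lay in a protein-coding gene, against 93.5% of those without a repeat. An exon of any GENCODE transcript covered 71 SINE centres (2.77%) and 5.12% of the no-repeat centres in introns or intergenic stretches, a difference of −2.35 points (−3.08 to −1.52). Peaks in other repeats had a share of 3.08% (2.64 to 3.59%), close to that of SINE peaks.

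Alu peaks sat more often in first introns than peaks without a repeat. The first intron of the annotated transcript held 887 of 2351 intronic SINE peaks (37.7%) and 2677 of 8872 intronic peaks without a repeat (30.2%), a difference of 7.56 points (Newcombe 95% interval 5.39 to 9.75). The share was 39.3% in Alu and 33.5% in MIR, 5.74 points apart (1.31 to 10.03). In other repeats 1521 of 4607 intronic peaks lay in first introns, a share near that of MIR. Against peaks without a repeat the difference was 9.12 points for Alu (6.64 to 11.6) and 3.37 for MIR, whose interval held 0 (−0.350 to 7.29). The distance from the centre to the nearest transcription start site (TSS), taken without its sign, had a median of 24584 bp at SINE peaks (interval 23194 to 25981) and 28220 bp at peaks without a repeat (27404 to 29055). Alu peaks had a median of 23774 bp and MIR peaks 26860 bp, with overlapping intervals. Within 5 kb of a TSS lay 156 Alu peaks (8.30%) and 79 MIR peaks (11.7%), a difference of −3.42 points (−6.32 to −0.838). The MIR share was also above the 8.34% of no-repeat peaks in introns or intergenic stretches, by 3.38 points (1.09 to 6.08). A larger share of MIR than of Alu peaks thus lay close to start sites, while Alu peaks were more in number there. Genes of non-coding RNA were named by 187 Alu peaks (9.95%) and 94 MIR peaks (13.9%), and the interval of the difference, Alu minus MIR, ran from −7.09 to −1.19 points. The share was 12.2% over all peaks and 13.0% at peaks without a repeat. MIR was near the no-repeat peaks in introns or intergenic stretches (0.944 points, −1.56 to 3.84), and Alu was lower (−3.06 points, −4.50 to −1.48). Peaks in other repeats, at 10.9%, were close to Alu.

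Neighbouring peaks lay at similar distances from Alu, MIR and no-repeat centres. The nearest other peak lay at a median of 3269 bp from Alu centres, 3450 bp from MIR centres and 3458 bp from centres without a repeat, and these 3 intervals overlapped. For other repeats the median was 4151 bp (3862 to 4397), above the interval of Alu (2881 to 3579). That nearest peak was itself a SINE peak for 340 Alu peaks (18.1%) and 104 MIR peaks (15.4%). Over all SINE peaks the share was 17.4%, against 13.6% at peaks without a repeat, a difference of 3.78 points (Newcombe 95% interval 2.21 to 5.42). Against no-repeat peaks in introns or intergenic stretches, the difference was 4.29 points for Alu (2.47 to 6.21) and 1.63 for MIR, whose interval held 0 (−0.996 to 4.63). Pairs of SINE peaks that are each other's neighbour count on both sides of this share.

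The share of SINE peaks varied between chromosomes, and most of the variation was in Alu. On the 21 chromosomes with at least 100 peaks, the SINE share had a median of 13.7% and ran from 7.79% on chromosome 13 (24 of 308 peaks) to 20.8% on chromosome 19 (40 of 192). The Alu share was 18.8% on chromosome 19 (Wilson 95% interval 13.9 to 24.9%), 15.3% on chromosome 17 (13.4 to 17.4%), 14.6% on chromosome 22 (10.2 to 20.5%) and 4.55% on chromosome 13 (2.73 to 7.48%). The MIR share ran from 1.79% on chromosome 21 (0.944 to 3.37%) to 5.67% on chromosome 18 (2.90 to 10.8%). Alu outnumbered MIR on all 21. In number, chromosome 17 had the most SINE peaks, 221 of 1239 (17.8%) or 2.72 per Mb. It was also the densest in all peaks, at 15.3 per Mb. Chromosome 12 followed with 208 of 1287 (16.2%), chromosome 1 with 203 of 1189 (17.1%) and chromosome 8 with 200 of 1594 (12.5%). Chromosome 8 had the most peaks in all, and its SINE share was below the median. Chromosomes 16 and X had 4 and 2 SINE peaks, among 26 and 30 peaks in all.

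The Alu share of a chromosome moved with the Alu content around its peaks. The word TGTAATCCC, which is conserved in the left arm of Alu (GGGATTACA on the other strand), was counted in the windows 2000 bp to either side of every peak centre, SINE or not. Over the 21 chromosomes, the share of these windows with the word correlated with the Alu share of peaks at a Pearson r of 0.844 and a Spearman rho of 0.826. The share of windows with the word was 13.2% on chromosome 17, 12.2% on chromosome 19 and 7.31% on chromosome 13. Chromosome 21 had the lowest, 7.26%, with an Alu share of 9.34%, and chromosome 10 had 11.5% with an Alu share of 10.9%. For the MIR share the values were −0.191 and −0.0195. The windows include those beside Alu peaks, which held the word more often than those beside no-repeat peaks (12.3% against 8.48%). The correlation was not computed without them. The chromosomes share 1 library and differ in gene density and base composition, so these are descriptions. The plot of shares by chromosome is ordered by the Alu share, so the fall of its Alu points is set by the order, and it serves to show the size of the shares and their intervals.

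Across the whole list, Alu sequence was scarcer at peak centres than nearby. The word TGTAATCCC, on either strand, was found in the central 200 bp of 1007 of 18035 peaks (5.58%) and in 3311 of 36070 windows 2000 bp away (9.18%), a difference of −3.60 percentage points (Newcombe 95% interval −4.04 to −3.14). The word GTTCGAGAC, part of the internal RNA polymerase III promoter of Alu, was found in 0.893% of centres and 1.93% of distant windows, a difference of −1.04 points (−1.23 to −0.835). At Alu peaks, where the choice of members puts Alu at the centre, 33.9% of centres held TGTAATCCC, with 18.9% in AluJ, 45.3% in AluS and 38.3% in AluY. The windows 2000 bp from Alu peaks held it in 12.3% of cases (Wilson 95% interval 11.3 to 13.4%), against 8.38% for MIR peaks (7.02 to 9.98%) and 8.48% for peaks without a repeat (8.11 to 8.86%). Alu peaks therefore lay in surroundings with more Alu sequence than the other peaks. Over the whole peak the word was present in 51.9% of Alu peaks and 6.53% of MIR peaks. In the profile by distance, the curve of all peaks dropped to 1.41% of peaks per 50 bp bin just left of the centre, from 2.71% in the outermost left bin, while the Alu curve rose to 11.2% just right of the centre.

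**Figure D1:**
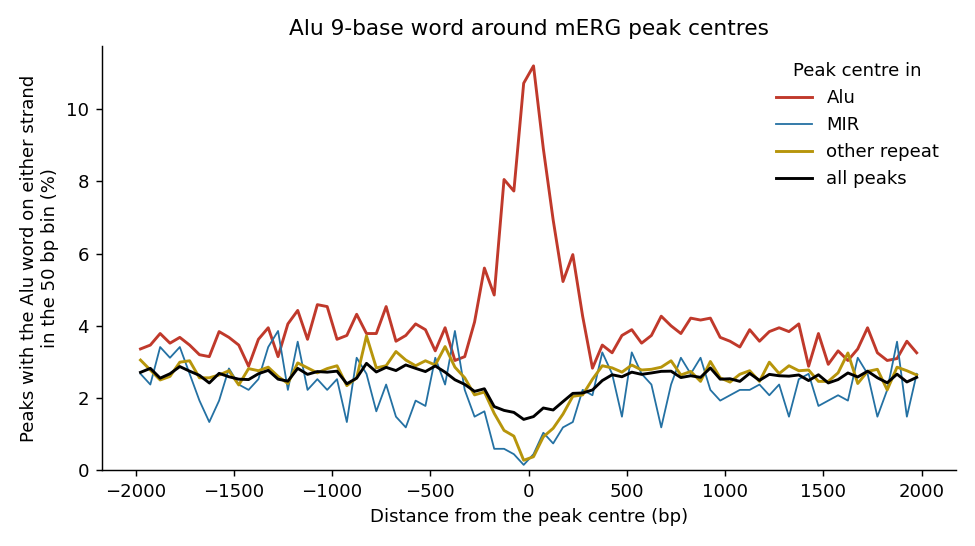
Percentage of peaks with the Alu word on either strand in each 50 bp bin, by distance from the peak centre, for Alu, MIR, other-repeat and all peaks. Alu peaks reach 11.2% beside the centre, and all peaks together fall to 1.41% there.

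The ETS core GGAA was less frequent at SINE centres than at centres without a repeat, and most of the gap lay in Alu. The choice of members puts repeat sequence at these centres, and SINE copies outside peaks were not compared. GGAA on either strand was found within 100 bp of 1575 of 2554 SINE centres (61.7%) and 9166 of 10404 centres without a repeat (88.1%), a difference of −26.4 percentage points (Newcombe 95% interval −28.4 to −24.5). In MIR the share was 84.4% and in Alu 53.4%, a difference of −31.0 points for Alu minus MIR (−34.4 to −27.3). MIR differed from the no-repeat peaks in introns and intergenic stretches by −3.48 points (−6.48 to −0.850). Within Alu, AluJ had GGAA at 59.3% of centres, AluS at 48.0%, AluY at 51.7% and FLAM at 68.5%. The windows 2000 bp from Alu centres held it in 77.7% of cases, near the 79.97% around MIR and the 80.0% around no-repeat peaks. Over the whole peak, GGAA was present in 82.0% of Alu peaks, 95.7% of MIR peaks and 96.9% of peaks without a repeat. In the profile by distance, GGAA fell to 16.7% of Alu peaks per 50 bp bin at the centre, from 33.8% in the outermost left bin, while no-repeat peaks rose to 42.6%.

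**Figure D2:**
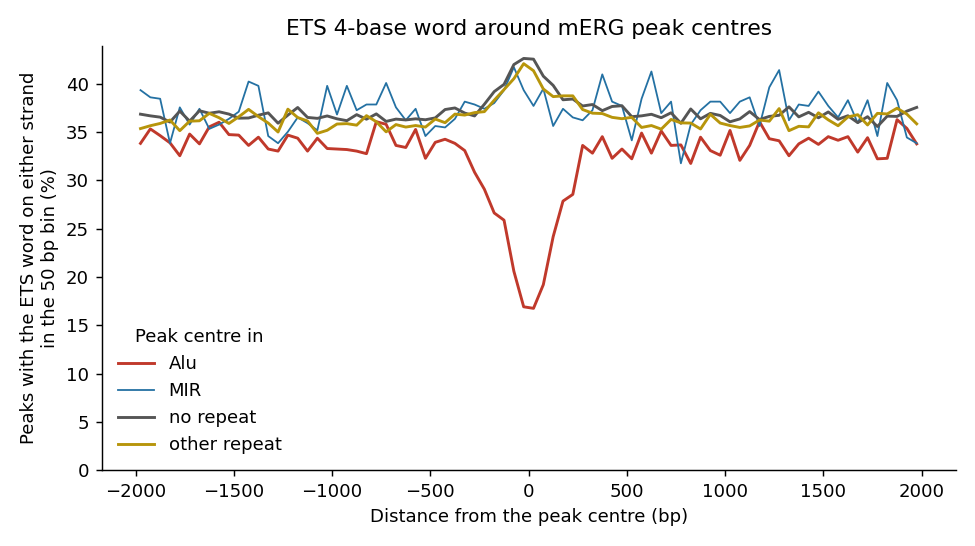
Percentage of peaks with the ETS 4-base word on either strand in each 50 bp bin, by distance from the peak centre. Alu peaks drop to 16.7% at the centre, and peaks without a repeat rise to 42.6%.

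The longer ETS core CCGGAAGT, allowing 1 mismatch outside GGAA, was rare in every group. It was found at 58 SINE centres (2.27%), 2.24% of Alu, 2.37% of MIR and 2.55% of centres without a repeat, where all peaks had 2.60% and the windows 2000 bp away 2.97%. The difference between SINE and no-repeat centres was −0.276 points (Newcombe 95% interval −0.879 to 0.437). The absence of these letters from a window says nothing about the factor.

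Alu centres were richer in GC than the other centres, and their CpG content was highest in AluY. The central 200 bp had a median GC content of 48% in Alu, 38.8% in MIR and 37% in peaks without a repeat. The windows 2000 bp away had 41% around Alu, 40% around MIR and 39.5% around peaks without a repeat. CpG dinucleotides per 200 bp averaged 1.96 at AluJ, 3.82 at AluS and 6.67 at AluY centres, and 1.22 at MIR and 1.29 at no-repeat centres. As members were chosen for a SINE at the centre, these values describe the repeat sequence as well as the peaks.

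The strand of the word gave the orientation of Alu against the host gene. Of 1661 intronic Alu centres in a protein-coding gene of known strand, 564 could be oriented by the word. Of these, 228 had more copies in the gene's own direction and 336 in the opposite direction, an antisense share of 59.6% (Wilson 95% interval 55.5 to 63.5%). In the windows 2000 bp from all intronic peak centres the antisense share was 59.5% (57.7 to 61.3%), from 2854 oriented windows. Over all Alu peaks the antisense share was close to that of the distant windows. The branches differed, with AluS centres antisense in 61.7% of 405 cases (56.9 to 66.3%) and AluJ centres in 48.3% of 120 (39.6 to 57.2%), below the distant windows. Only 120 of 625 intronic AluJ centres could be oriented.

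Of the 10 SINE peaks with the highest scores, 8 lay in Alu and 8 in introns, where Alu made up 73.5% and introns 91.9% of all SINE peaks. The top peak, an AluJo with a score of 295.1, was named for MIR1204, a microRNA gene of the PVT1 locus. A MIRb peak with the same gene name scored 248.9. The deposited annotation labels both as intergenic, and gene bodies of non-coding RNA were not compared with the peak centres. An AluSz peak named for HRASLS2, a phospholipid-modifying enzyme, lay in intron 4 of its neighbour PLAAT3 and scored 259.8. An AluSx peak in intron 1 of E2F3, a cell cycle transcription factor, scored 252.1. KDM2A, a histone H3 lysine demethylase, carried AluSp peaks of 250.1 in intron 2 and 247.1 in intron 8. Next came a FLAM_A peak in intron 1 of CHKA, a choline kinase (234.5), and a MIR3 peak in intron 3 of ELL2, an RNA polymerase II elongation factor (226.5). The list of 10 closed with AluJb in TAF2, a TFIID subunit (208.1), and AluSx in CDKAL1, a tRNA-modifying enzyme (195.6). Many of these peaks shared a chromosome. Those named for HRASLS2, KDM2A and CHKA lay on chromosome 11, and those for MIR1204 and TAF2 on chromosome 8. The peaks of E2F3 and CDKAL1 lay on chromosome 6, and that of ELL2 on chromosome 5.

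SINE peaks named 1582 of the 5011 genes in the list, and 1082 of these by 1 SINE peak. KANSL1, a subunit of the NSL histone acetyltransferase complex, RERE, a nuclear receptor coregulator, and ZNF609, a zinc finger protein, were each named by 14. For KANSL1 these were 14 of 60 peaks (12 Alu), for RERE 14 of 88 (9 Alu) and for ZNF609 14 of 44 (12 Alu). LIMCH1, an activator of non-muscle myosin, had 13 of 56. The FERM domain protein EPB41L4B had 10 of 21, of which 5 were Alu and 5 MIR. The ubiquitin-conjugating enzymes UBE2R2 and UBE2H had 10 of 17 and 9 of 21, of which 10 and 8 were Alu. At 8 SINE peaks each came, among others, DIP2B (8 of 32), the mitochondrial insertase COX18 (8 of 30) and ASAP1-IT2, a transcript within ASAP1 (8 of 24). DIP2B had Alu alone, and ASAP1-IT2 had 4 Alu and 4 MIR. Among the 97 genes with at least 20 peaks, the SINE share had a median of 12.7% and reached 47.6% at EPB41L4B. The gene named is that of the nearest TSS. By the transcript whose intron held the peak, 663 of 2322 intronic SINE peaks (28.6%) lay in another gene than the one named. KANSL1 then held 20, RERE 14, UBE2H 13, UBE2R2 13, LIMCH1 12 and ZNF609 11. Some genes not named above held as many by this count as LIMCH1 or ZNF609. The introns of ASAP1 held 8 of 50 by this count. By the GENCODE gene body, COX18 held 2 SINE peaks of 8.

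A list of genes was drawn up around the study, not all of them named in the paper's text, and some were named by SINE peaks. EED, a core subunit of PRC2 beside EZH2, had 2 SINE peaks of 3, and its GENCODE gene body held 2 of 5. They were an AluJb peak at chr11:85963616-85964186 in intron 3 with a score of 71.2, and an AluSp peak at chr11:85969698-85970018 in intron 6 with a score of 36.1. ARID2, a SWI/SNF subunit, had 2 of 13, an AluJb peak in intron 3 (52.1) and a MIRb peak in intron 15 (50.9), and its GENCODE gene body held 3 SINE peaks of 20. CTNNA1, which encodes alpha-catenin, had 2 of 28, an AluJo peak in intron 1 (36.4) and an AluSx1 peak in intron 3 (52.9), and its gene body held 5 of 42. The formin DAAM1 had 1 of 8, a MIR peak in intron 3 (49.8). ERG with 2 peaks, EZH2 with 6, TMPRSS2 with 1 and SUZ12 with 1 had 0 SINE peaks. AKT1, CTNNA2, BMI1, CADPS, MAT2A, IL6 and PLAT were named by 0 peaks of any kind, although 2 peaks named for other genes lay in the GENCODE gene body of CADPS and 1 in that of CTNNA2, with 0 SINE peaks among them.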

How the data were processed

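The authors deposited 1 list of MACS peaks on hg19, annotated with HOMER; Bowtie2 and Picard are also named in the submitters' processing notes. The deposited score was taken as the log10 of each peak's p-value from MACS, multiplied by −10, with no normalization to depth. This scale was inferred from the values and the mention of MACS in the file header. For the mERG library, the MACS version, its threshold and the control settings are not given in the sources used here. Nor is the handling of reads that align to several repeat copies. For the public ERG and EZH2 data from VCaP, the paper retained reads with a unique alignment. Depth is unknown from the list, so intervals cover counting error only.

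The deposited start, end and distance to the TSS are in bp, and width is end minus start plus 1. Peaks were grouped by the deposited repeat class and family. Words were sought on both strands of GRCh37 in the 200 bp around the centre of 18037 peaks and in windows 2000 bp to either side, and shares against those windows used the 18035 peaks with all 3 windows. As a check of the build, 46.7% of the TSS positions implied by the list lay within 2 bp of a GENCODE release 44 TSS on GRCh37. Host genes came from RefSeq names (GRCh38.p14, names only).

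No test was run. Shares have Wilson, differences of shares Newcombe and medians order-statistic 95% intervals, and differences of medians combine those of both medians. The Newcombe and order-statistic intervals and the search for words were tested on simulated data. The Wilson intervals and those for differences of medians were not tested by themselves. Members and lists were chosen with earlier results of these data known. The genes named were those of the 10 SINE peaks with the highest score and the 10 genes with the most SINE peaks, ties included. Genes of a list drawn up around the study were added. Sequences came from the highest-scoring peak of the commonest names, with none taken from chromosome 8. Some genes and sequences that these rules cover are not reported here. Alternatives were stronger peaks, narrower peaks, fewer chromosomes, other comparison groups, introns, within-chromosome differences, and other windows and words. The software was pysam 0.24.0, SciPy 1.17.1, pandas 2.3.3, NumPy 2.4.6 and Matplotlib 3.10.9 under Python 3.11.15.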

Additional observations from a re-analysis of the deposited data

How the results depend on the processing

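Of 40 alternatives, 32 left the value within the main 95% interval and 8 moved it. Among the 32, including uncertain SINEs changed no member and so tested nothing. Of 7 more chosen after seeing the data 4 left it there, 2 moved it and 1 reversed it. The causes were not tested unless stated. The Alu share of SINE peaks was 71.1% in the stronger 50% of peaks and 70.9% at a minimum score of 50. The score difference between SINE and no-repeat peaks was −0.97 at that minimum. The width difference changed from −1 to 9 bp in the stronger 50%, within its own interval around 0. The score of Alu minus MIR was −2.87 as the median of differences within 14 chromosomes. The intron share difference was 4.97 points against all peaks that are not SINE. With the longer ETS core in place of GGAA, the difference was −0.276 points, and with GTTCGAGAC in place of TGTAATCCC the deficit at centres was −1.04 points, both from rarer words.

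Among the alternatives chosen after seeing the data, limiting the list to introns and intergenic stretches gave a SINE share of 14.9% and turned the intron share difference to −1.09 points, because the annotation names no repeats in exons, UTRs or promoters. GGAA over whole peaks gave −11.3 points. No paired analysis was possible because there is 1 ChIP library and 1 control. The intervals reflect the number of peaks, and what sequencing depth limits is unknown from the list.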

Other observations

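SINE peaks of at least 5 kb numbered 7, among 46 such peaks in the list, and 6 of the 7 lay on chromosome 11. That chromosome held 19 of the 46 wide peaks, 986 of all 18070 peaks and 154 of the 2559 SINE peaks. The widest were a FLAM_A peak in RTN3 (13207 bp, score 167.3) and an AluY peak in MARK2 (13089 bp, score 180.8), and a second AluY peak in MARK2 was 6816 bp wide with a score of 58.3. At such widths the centre, and so the repeat name, describes a small part of the peak.

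Of the 1582 genes named by SINE peaks, 300 were named by SINE peaks alone, and 264 of these had 1 peak in all. At least 5 SINE peaks were found at 64 genes.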
